A study of Mus musculus with 21 samples.

Results

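Keratins are the intermediate filament proteins of epithelial cells, and 10 of them were followed across a set of mouse colon libraries. They were chosen by name as keratins of simple epithelium (Krt7, Krt8, Krt18, Krt19, Krt20, Krt23 and Krt80) and as keratins of stratified squamous epithelium that would mark anorectal tissue (Krt5, Krt13 and Krt14). All 10 were found among the 24062 genes of the count table, and all 10 were among the 15936 genes kept by the filter on low counts. RNA was measured by sequencing of ribosome-depleted total RNA in 21 libraries, 3 in each of 7 groups, from the colon of C57BL/6 mice. Animals were wild-type or carried the knock-in allele App NL-G-F, a form of the amyloid precursor protein gene with mutations related to Alzheimer's disease. Male mice of both genotypes and wild-type females were each represented by a group of normal colon and a group of tumours, and knock-in females by normal colon alone. Tumours of knock-in females were not analysed here. Tumours came from AOM/DSS, in which the carcinogen azoxymethane is combined with dextran sulfate sodium, an agent that injures the colon lining. The sample labels call the normal libraries untreated, while the text on the series speaks of colon next to tumours or of colon in which no tumour formed. The question stated for the series is how the App mutations bear, at the level of RNA, on the response of the colon to this treatment.

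A keratin filament is built from pairs of one type I and one type II protein, so that each cell needs members of both classes. In the gut, type II Krt8 pairs with type I Krt18, Krt19 and Krt20, and Krt20 is known as a keratin of differentiated cells near the luminal surface. Krt7 is best known from ductal and glandular epithelia. In stratified epithelia, Krt5 and Krt14 form the filaments of basal cells, Krt4 and Krt13 those of the upper layers of non-cornified mucosa, and Krt1 and Krt10 those of cornifying layers. The transcription factor Trp63 is the textbook marker of the basal layer. The rectal mucosa borders such an epithelium at the anal canal.

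Library totals ran from 3414123 to 26174008 counts. Levels are given as counts per 1000000 (CPM) on library sizes scaled by the trimmed mean of M values (TMM), and the mean ± SD is over 3 libraries of a group. In all 7 groups the tissue carried epithelial markers, with Epcam between 817 and 1531 CPM in every library. Summed CPM of 8 smooth muscle genes ran from 1895 to 8944 in the normal libraries and from 184 to 964 in the tumours, while the sum of 12 epithelial genes other than keratins ran from 5962 to 8910.0 in normal colon and from 4839 to 6149 in tumours. App was at 449 to 1003 CPM over the 21 libraries, and since a knock-in leaves the gene expressed, its level does not check the genotype labels. Mesothelial genes summed to at most 46.1 CPM and urothelial genes to at most 12.7 CPM in any library. The labels do not say that libraries of a group came from separate animals, so p-values measure the spread between these libraries, which may be technical. In such bulk samples, fewer cells of a type and less RNA per cell cannot be told apart.

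The 10 genes lie in both keratin clusters of the mouse genome. In GENCODE annotation of GRCm38, the build named as mm10 in the submitters' processing notes, Krt80 (chr15:101347444-101370162), Krt7 (chr15:101411043-101430313), Krt5 (chr15:101707070-101712898), Krt8 (chr15:101996698-102004482) and Krt18 (chr15:102028180-102032027) are on chromosome 15. Krt18 is the type I gene that sits beside the type II cluster, with 23697 bases between it and its partner Krt8. Krt20 (chr11:99428403-99438150), Krt23 (chr11:99477974-99493137), Krt13 (chr11:100117327-100121566), Krt19 (chr11:100140810-100148665) and Krt14 (chr11:100203162-100207548), all type I, are on chromosome 11.

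RefSeq promoter windows of GRCm38.p6 were found for 8 of the 10 genes. The 4 windows shown hold the 250 bases before the start site of Krt20, which fell in wild-type tumours, of Krt23, which rose there, and of Krt5 and Krt13, which differed widely between libraries of some groups. The last 17 bases of the Krt23 window lie in an annotated exon. The windows not shown overlapped annotated exons by 36 bases or more or stood at a start inside the gene. Capitals mark matches on either strand to the sequence ATAAAA, which resembles the promoter element bound by the basal machinery, to the element TGANTCA of the AP-1 factors and to the element TTTATNG of the CDX factors.
Krt20: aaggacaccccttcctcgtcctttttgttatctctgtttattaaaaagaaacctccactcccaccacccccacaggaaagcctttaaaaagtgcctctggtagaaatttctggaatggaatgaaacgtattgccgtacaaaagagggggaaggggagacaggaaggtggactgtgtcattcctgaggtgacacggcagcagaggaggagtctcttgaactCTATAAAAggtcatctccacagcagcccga
Krt23: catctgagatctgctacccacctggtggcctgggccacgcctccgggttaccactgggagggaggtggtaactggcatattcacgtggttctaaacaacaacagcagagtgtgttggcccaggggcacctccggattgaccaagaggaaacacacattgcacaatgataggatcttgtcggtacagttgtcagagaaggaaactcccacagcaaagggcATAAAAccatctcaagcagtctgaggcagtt
Krt5: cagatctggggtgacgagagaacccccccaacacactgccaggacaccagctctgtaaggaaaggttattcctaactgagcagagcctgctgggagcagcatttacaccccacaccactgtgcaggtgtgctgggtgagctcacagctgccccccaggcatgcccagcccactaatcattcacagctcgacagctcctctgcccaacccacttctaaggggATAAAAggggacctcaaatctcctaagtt
Krt13: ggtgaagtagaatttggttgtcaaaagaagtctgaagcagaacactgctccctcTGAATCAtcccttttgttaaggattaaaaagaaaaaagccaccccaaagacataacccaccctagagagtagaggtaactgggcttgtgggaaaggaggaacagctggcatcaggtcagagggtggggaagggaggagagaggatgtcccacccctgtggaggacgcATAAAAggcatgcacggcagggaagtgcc

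The windows are on the minus strand at chr11:99438154-99438403 (Krt20), chr11:99493121-99493370 (Krt23), chr15:101712906-101713155 (Krt5) and chr11:100121567-100121816 (Krt13). ATAAAA on the sense strand began 28 bases before the start site in Krt20, 31 in Krt23, 29 in Krt5 and 29 in Krt13. Krt20 and Krt23, with opposite changes in wild-type tumours, thus share this element. Among the windows not shown, those of Krt8, Krt18 and Krt14 held no ATAAAA, and in that of Krt7 it began 7 bases before the start. Of 32851 windows of the same length in the table, 17% held ATAAAA on either strand and 1.55% held it on the sense strand between 20 and 35 bases before the start. TATAAA was found in the Krt20 window alone among the 4, where it overlaps ATAAAA, and in 12.4% of all windows, and GGGCGG, the GC box, in none of the 4 and in 32.7% of all windows, all of these on either strand. TGANTCA was found in the Krt13 window alone among the 4, and in 6.75% of all windows. The TTTATNG match of Krt20 overlaps its ATAAAA on the opposite strand, and 9.81% of all windows held that element. The palindromic p53-family element was in none of the 4 windows and in 0.49% of all windows. The element ATAAAA was picked after the sequences had been read, and a match describes letters only.

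Per length of the principal transcript, Krt8 and Krt19 carried most of the keratin signal. The median over 21 libraries was 1242 CPM per kb for Krt8 and 1137 CPM per kb for Krt19. Krt18 followed with 212 CPM per kb, Krt20 with 153, Krt7 with 43.8, Krt23 with 30.6, Krt14 with 23.4 and Krt13 with 5.80. Krt5 and Krt80 were lowest, with medians of 0.662 and 0.659 CPM per kb. Krt8 exceeded Krt19 in 20 of 21 libraries and Krt19 exceeded Krt18 in all 21. Most neighbours further down changed places more often: Krt18 was above Krt20 in 14 libraries, Krt23 above Krt14 in 14 and Krt5 above Krt80 in 11. Krt14 was above Krt13 in 15, Krt7 above Krt23 in 16 and Krt13 above Krt5 in 18, while Krt20 was above Krt7 in 20. Together the 10 genes held from 0.391% to 0.805% of all counts of a library, and the highest share was in knock-in male tumour replicate 2.

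**Figure D1:**
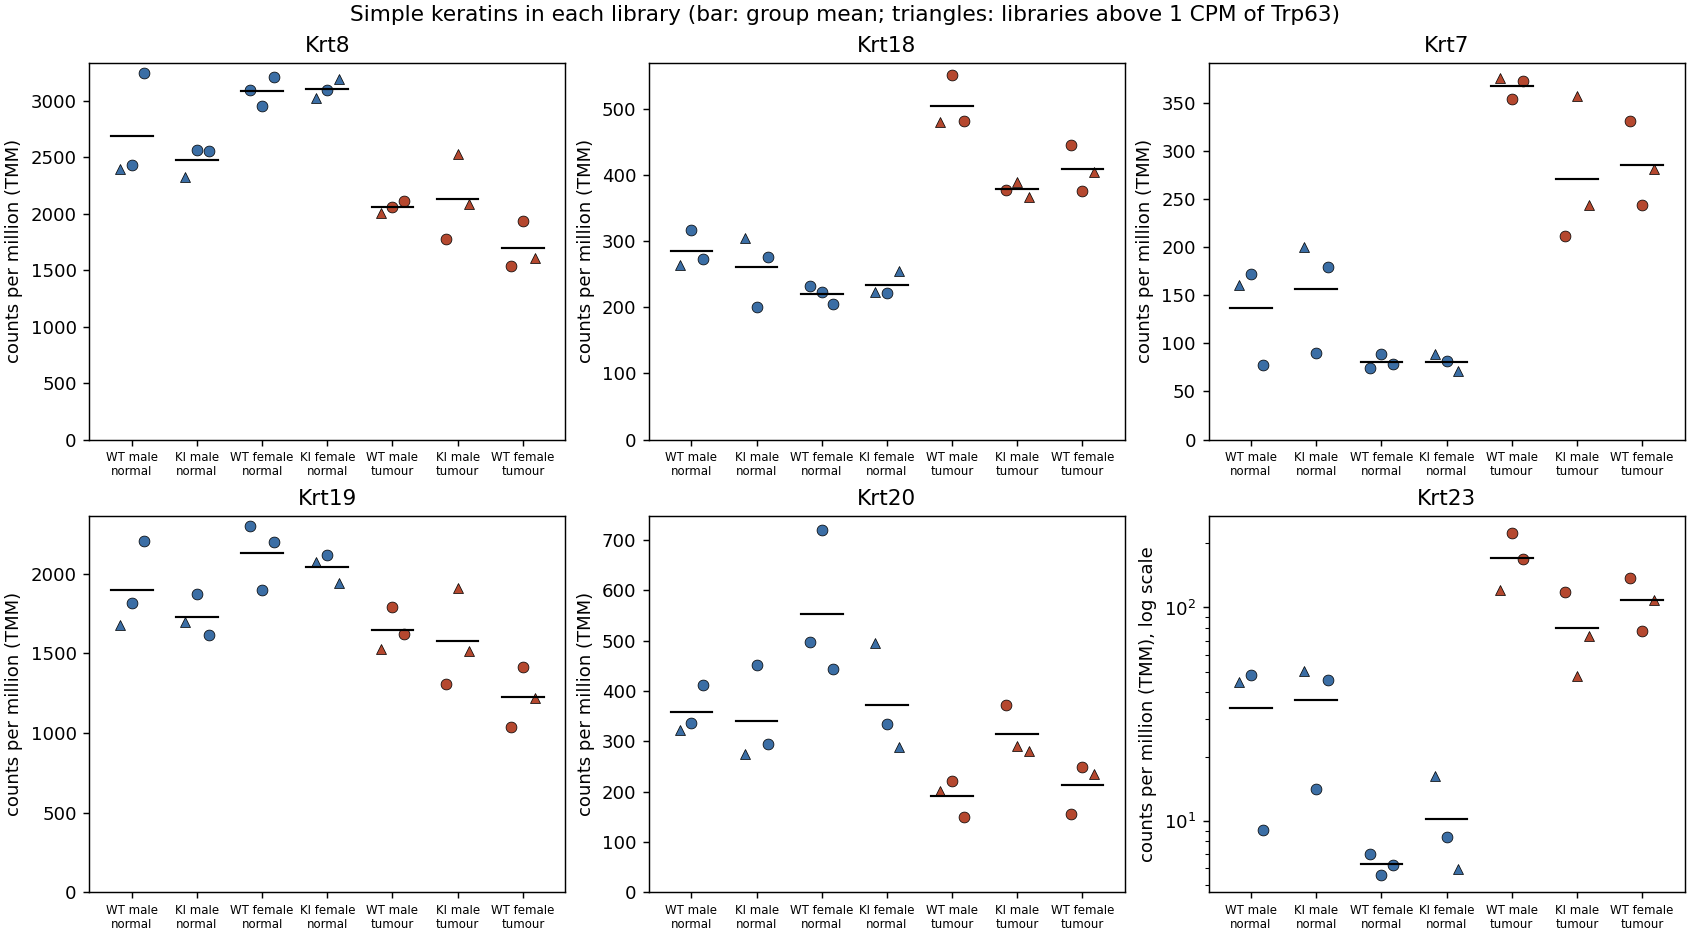
CPM (TMM-scaled, vertical axis, logarithmic for Krt23 only) of 6 simple keratins in each of the 21 libraries, by group, with normal colon in blue, tumours in red, bars at the group means and triangles for libraries above 1 CPM of Trp63. Krt18 is higher in every tumour than in any normal library, and Krt7 and Krt23 are lowest in the female normal libraries and in single male ones.

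Among type II simple keratins, Krt8 was lower in wild-type tumours and Krt7 was higher. Krt8, the main type II keratin of the colon, was at 2399, 2432 and 3250.1 CPM in wild-type male normal colon and at 2005, 2062 and 2117 CPM in wild-type male tumours, without overlap. It fell by 0.39 on the log2 scale (SE 0.13, edgeR adjusted p = 0.0299). With the data scaled on the 12 epithelial genes in place of TMM, this value was 0.021 with an edgeR adjusted p of 0.898, and without wild-type male normal replicate 3 it was -0.23 with an edgeR adjusted p of 0.211. Leaving out tumour replicate 1, 2 or 3 gave -0.38, -0.39 and -0.41 with edgeR adjusted p-values of 0.0698, 0.0694 and 0.0584.

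In wild-type females, Krt8 was at 3098, 2953 and 3209.7 CPM in normal colon and at 1534, 1934 and 1613 CPM in tumours. It fell by 0.87 (SE 0.13, edgeR adjusted p = 3.67e-05), and the value was -0.25 with an edgeR adjusted p of 0.0731 on the epithelial scaling. In knock-in males, Krt8 was at 2324, 2564 and 2555 CPM in normal colon and at 1780.1, 2527 and 2090.2 CPM in tumours, where the groups overlapped and the log2 difference was -0.22 (95% interval -0.48 to 0.04, edgeR adjusted p = 0.244).

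Krt7 was at 160.4, 172 and 77.4 CPM in wild-type male normal colon and at 376, 354 and 373 CPM in the tumours. It rose by 1.43 on the log2 scale (SE 0.28, edgeR adjusted p = 0.00109). The female wild-type groups stood at 74.6, 89.0 and 78.4 CPM in normal colon and at 331, 244 and 282 CPM in tumours, a rise of 1.82 (SE 0.29, edgeR adjusted p = 6.54e-05). Every wild-type tumour lay above every normal library of its own sex. In knock-in males the groups did not overlap either, with 200.03, 90.1 and 179 CPM in normal colon and 211, 357 and 244 CPM in tumours, but the log2 difference of 0.79 (SE 0.28) had an edgeR adjusted p of 0.0548. The highest of those tumour values belongs to replicate 2, which also had the highest squamous keratins. Without it the log2 difference was 0.51 (edgeR adjusted p = 0.261).

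Among type I simple keratins, Krt18 rose in all 3 tumour comparisons. Krt18, the partner of Krt8, was at 264, 317 and 273 CPM in wild-type male normal colon and at 479.7, 551 and 481 CPM in tumours, a rise of 0.82 (SE 0.13, edgeR adjusted p = 0.000112). Females of the wild type went from 231, 223 and 204 CPM to 445, 375 and 404 CPM, a rise of 0.89 (SE 0.13, edgeR adjusted p = 1.82e-05). Knock-in males had 304, 201 and 275 CPM in normal colon and 378, 389.7 and 367 CPM in tumours, a rise of 0.54 (SE 0.13, edgeR adjusted p = 0.00873). With only the 2 knock-in male groups in the fit, that rise had an edgeR adjusted p of 0.0985.

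The balance of Krt18 and its partner Krt8 was compared as a ratio. Per length, Krt18 was at 14.7% ± 3.16 of Krt8 in wild-type male normal colon and at 33.3% ± 2.81 in tumours. The share was 9.71% ± 0.905 and 33.4% ± 6.58 in wild-type females, and 14.4% ± 3.59 and 24.6% ± 3.99 in knock-in males. The groups did not overlap in any of the 3 comparisons. A two-sided exact permutation test gave p = 0.1 in each, the smallest that 3 against 3 libraries can give, and 0.1125 after Benjamini-Hochberg adjustment over 9 tests of 3 ratios. The ratio is free of library scaling. Krt7 per length was 2.58% ± 1.25 of Krt8 in normal colon and 8.53% ± 0.398 in tumours of wild-type males, 1.25% ± 0.162 and 8.23% ± 2.15 in wild-type females, and 3.05% ± 1.25 and 6.01% ± 0.659 in knock-in males, with the same exact p-values.

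Krt19, the other abundant type I keratin, was at 2302, 1895 and 2202 CPM in wild-type female normal colon and at 1037, 1416 and 1221 CPM in tumours. It fell by 0.80 (SE 0.15, edgeR adjusted p = 0.000183), and the value was -0.19 with an edgeR adjusted p of 0.196 on the epithelial scaling. In males the normal and tumour values overlapped, from 1678 to 2209 CPM against 1528 to 1792 CPM in wild-type animals and from 1616 to 1872 CPM against 1305 to 1913 CPM in knock-in animals, and the edgeR adjusted p-values were 0.277 and 0.535.

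Krt20, the keratin of surface cells, was at 322, 337 and 413 CPM in wild-type male normal colon and at 200.3, 222 and 150.1 CPM in tumours. It fell by 0.91 (SE 0.25, edgeR adjusted p = 0.00922), and the value was -0.50 with an edgeR adjusted p of 0.0674 on the epithelial scaling. Wild-type females had 497, 720.0 and 443 CPM in normal colon and 156, 249.7 and 236 CPM in tumours, a fall by 1.37 (SE 0.25, edgeR adjusted p = 0.000227). In knock-in males the values overlapped, with 274, 452 and 294 CPM in normal colon against 372, 291 and 279.6 CPM in tumours, and the log2 difference was -0.11 (95% interval -0.60 to 0.37, edgeR adjusted p = 0.771). The test of the difference between the wild-type and knock-in male changes of Krt20 gave 0.79 on the log2 scale (SE 0.35, edgeR adjusted p = 0.172).

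Krt23 had the widest range of the simple keratins, from 5.57 to 224 CPM. It was at 44.6, 48.2 and 9.05 CPM in wild-type male normal colon and at 120.2, 224 and 169 CPM in tumours, a rise of 2.32 (SE 0.57, edgeR adjusted p = 0.00587). Female wild-type mice had it at 7.01, 5.57 and 6.19 CPM in normal colon and at 138, 77.7 and 109 CPM in tumours, a rise of 4.09 (SE 0.65, edgeR adjusted p = 9.78e-05). Knock-in males had 50.6, 14.0 and 45.7 CPM in normal colon and 118, 47.9 and 73.8 CPM in tumours, where the groups overlapped and the log2 difference was 1.13 (SE 0.56, edgeR adjusted p = 0.159).

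**Figure D2:**
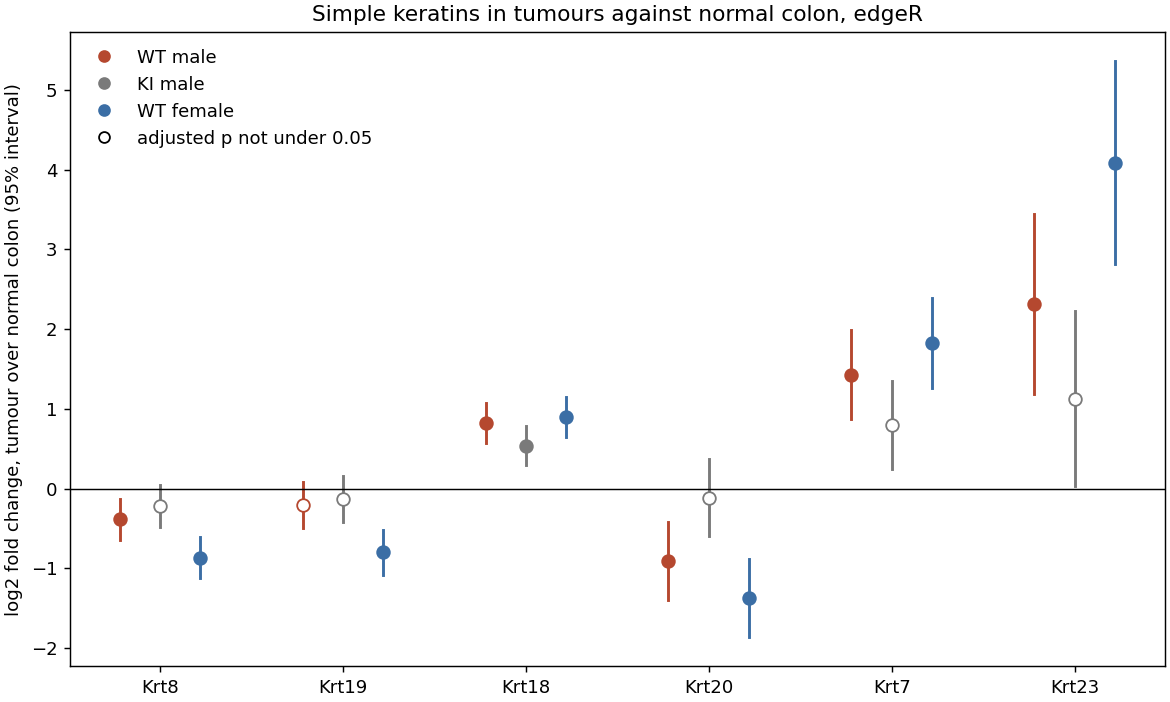
Log2 fold change of 6 simple keratins, tumour over normal colon, with nominal 95% intervals, in wild-type males, knock-in males and wild-type females. Intervals are a normal multiple of the standard error and can be narrower than the F test implies. For Krt23 in knock-in males the interval is 0.034 to 2.22, while the unadjusted edgeR p is 0.061. Filled points passed the edgeR threshold: Krt18 lies above 0 in all 3, and Krt7 and Krt23 are filled in the wild-type comparisons only. The Krt8 value of wild-type males is drawn at -0.39, and its value of 0.021 on the epithelial scaling is not drawn.

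By count, 5 of 10 keratins passed in wild-type males, where 35.7% of all tested genes did. In knock-in males 1 of 10 passed, beside 20.4% of all genes, and in wild-type females 6 of 10, beside 49.1%. Groups did not overlap for 5, 2 and 9 of the 10, beside 52.4%, 33.6% and 58.4% of all genes. The counts of called and of non-overlapping keratins are near these shares in wild-type males or differ from them by a few genes, and nothing is read from them about keratins as a group. Leaving out the 8 libraries above 1 CPM of Trp63, an alternative chosen after seeing the data, left 2 of 10 in wild-type males (Krt7 and Krt18), 0 of 10 in knock-in males with a single tumour remaining, and gave 10 of 10 in wild-type females. In those fits 16.0%, 0.0122% and 36.5% of all tested genes were called. Krt18 had log2 differences of 0.80, 0.65 and 0.92 there. In wild-type females only tumour replicates 1 and 2 remained, with 0 and 23 counts of Krt5 against 2, 1 and 0 in normal colon. Libraries were omitted by Trp63, which was high in the same libraries as Krt5, so calls of squamous keratins there rest on a selected set. The tests of a difference between the tumour changes of the genotypes in males and of the sexes in wild-type mice called 0 of 10 keratins each by edgeR, beside 1.51% and 1.12% of all genes. At an unadjusted p under 0.05 they held 1 keratin (Krt20) and 4 (Krt8, Krt19, Krt23 and Krt80). DESeq2 called 0 in both, and limma voom called 0 and 2.

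The male normal libraries were not alike. Krt7 was at 160.4 to 200.03 CPM in wild-type replicates 1 and 2 and in knock-in replicates 1 and 3, and at 77.4 and 90.1 CPM in wild-type replicate 3 and knock-in replicate 2. Krt23 followed the same division, with 44.6 to 50.6 CPM in the first 4 and 9.05 and 14.0 CPM in the other 2. The Wnt target Axin2 was at 219.8 to 314 CPM in those 4 libraries and at 81.9 and 86.5 CPM in the other 2. In the 6 female normal libraries Krt7 was at 71.3 to 89.0 CPM, Krt23 at 5.57 to 16.2 CPM and Axin2 at 29.9 to 58.1 CPM. These values were set side by side after they had been seen, and their relation was not tested.

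Between the sexes, Krt23 was lower in wild-type female than in wild-type male normal colon, by a log2 difference of -2.43 (SE 0.62, edgeR adjusted p = 0.0166), as 1 of 10 keratins beside 15.9% of all genes. Without wild-type male normal replicate 1 the value was -2.21 (edgeR adjusted p = 0.0643), and without replicate 2 it was -2.11 (edgeR adjusted p = 0.0605). The call was also lost without wild-type female normal replicate 1 (-2.54, edgeR adjusted p = 0.0588) or replicate 2 (-2.35, edgeR adjusted p = 0.0738). Krt18 had -0.37 (edgeR adjusted p = 0.0531) and Krt7 -0.76 (edgeR adjusted p = 0.0748). In knock-in normal colon and in wild-type tumours, edgeR called 0 of 10 keratins between the sexes, beside 0.584% and 0.860% of all genes. At an unadjusted p under 0.05 there were 3 in each, Krt7, Krt8 and Krt23 in the former and Krt8, Krt18 and Krt19 in the latter. DESeq2 called 2 and 0, and limma voom 1 and 3.

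In male tumours, Krt18 differed with genotype and was lower in the knock-in. The values were 378, 389.7 and 367 CPM against 479.7, 551 and 481 CPM, a log2 difference of -0.41 (SE 0.13, edgeR adjusted p = 0.0382), as 1 of 10 keratins beside 14.5% of all genes. Values did not overlap for 3 of 10 keratins (Krt18, Krt20 and Krt23), beside 36.4% of all genes. Without wild-type male tumour replicate 2 it was -0.34 (edgeR adjusted p = 0.124), and the call was lost on leaving out any single one of the 6 libraries. Krt20 was at 372, 291 and 279.6 CPM in the knock-in tumours, above all 3 wild-type tumours, with a log2 difference of 0.72 (SE 0.25, edgeR adjusted p = 0.0582). The other 8 keratins had edgeR adjusted p-values of 0.184 or more.

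In normal colon, edgeR called 0 of 10 keratins between knock-in and wild-type males, beside 0.0126% of all genes, and none had an unadjusted p under 0.05. DESeq2 and limma voom called 0 there. Between knock-in and wild-type females edgeR called 0 of 10, beside 16.0% of all genes, although Krt20, Krt80, Krt5 and Krt14 had an unadjusted p under 0.05. DESeq2 called 4 (Krt80, Krt5, Krt13 and Krt14) and limma voom 0. Of the simple keratins there, Krt20 had a log2 difference of -0.57 (95% interval -1.05 to -0.085, edgeR adjusted p = 0.125) and Krt18 one of 0.088 (-0.16 to 0.34). The log2 difference was 0.0097 for Krt8 (95% interval -0.25 to 0.27), -0.060 for Krt19 (-0.34 to 0.22) and 0.0031 for Krt7 (-0.55 to 0.56). The test of a difference between the genotype effects of the sexes in normal colon called 0 of 10 by edgeR, beside 2.54% of all genes, with 2 (Krt80 and Krt14) at an unadjusted p under 0.05, 1 by DESeq2 and 0 by limma voom.

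The squamous keratins behaved differently, since Krt5 divided libraries within groups, and Krt13 and Krt14 did so in part. Krt5 was at 223 CPM in wild-type male normal replicate 1 and at 0.374 and 0.497 CPM in replicates 2 and 3. Knock-in male normal replicate 1 had 240.5 CPM, beside 0.759 and 0.691 CPM. In knock-in female normal colon Krt5 was at 175 CPM in replicate 1 and 240.1 CPM in the unnumbered library b, beside 0.225 CPM in library a. The 3 wild-type female normal libraries had 2, 1 and 0 counts, which is 0.0845, 0.139 and 0 CPM, and a count of 0 there allows up to 0.464 CPM.

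Tumours were divided as well. Krt5 was at 114, 1.45 and 0.460 CPM in tumours of wild-type males, at 2.72, 736 and 107 CPM in knock-in male tumours and at 0, 2.69 and 35.1 CPM in wild-type female tumours. In 8 libraries it was at 35.1 CPM or more, and in the other 13 at 2.72 CPM or less.

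The same 8 libraries, and no others, were above 1 CPM of Trp63, with 4.13 to 121 CPM against at most 0.351 CPM in the other 13. They are 1 each of wild-type male normal, wild-type male tumour, knock-in male normal and wild-type female tumour, and 2 each of knock-in male tumour and knock-in female normal, with none among wild-type female normal. Of the other 25 listed genes of anorectal squamous epithelium, the desmosomal cadherin Dsc3 and Lypd3, a surface protein of squamous cells, had all 8 of these libraries above all 13 others, as did 16 of all 15936 tested genes, Trp63 included. Trp63 itself defines the 8 and is not counted. The summed list ran from 451 to 2206 CPM in the 8 and from 483 to 1843 CPM in the 13, since Tgm3, an epidermal transglutaminase, reached 1817 CPM in the former and 1603 CPM in the latter. Krtdap, Sprr3 and Crct1 were at 0 in some of the 8.

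**Figure D3:**
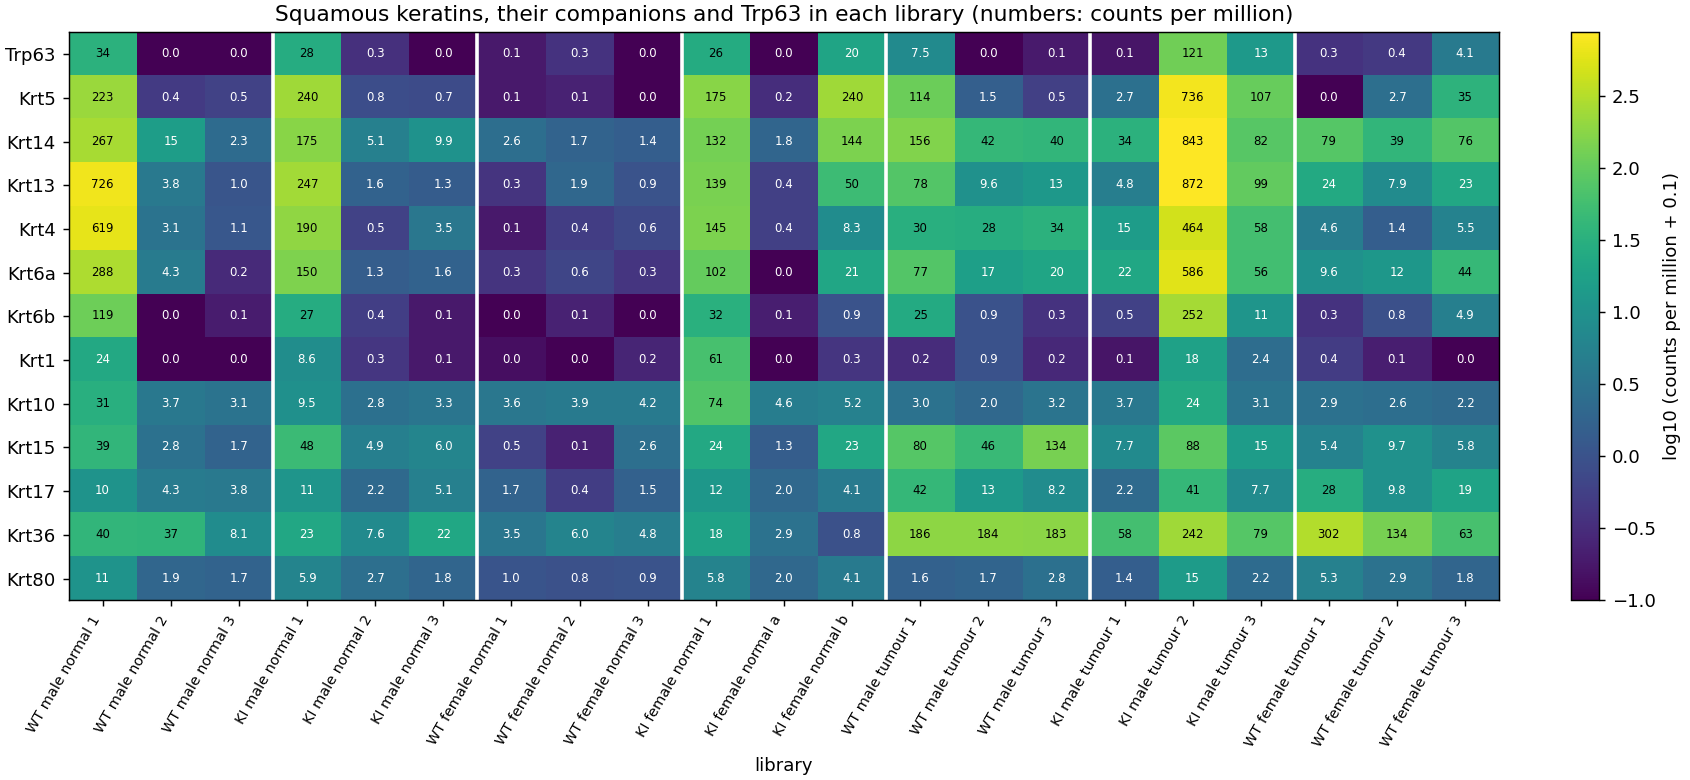
CPM of Trp63, the 3 squamous keratins, 8 companion keratins, Krt36 of the latter rising with tumours, and Krt80 in the 21 libraries by group, coloured as log10 (CPM + 0.1) with CPM printed in each cell. High Krt5 and high Trp63 fall in the same 8 columns, while Krt14 and Krt36 are also raised in tumours whose Krt5 is at 2.72 CPM or less.

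Krt14, the basal partner of Krt5, was at 76.3 to 843 CPM in those 8 libraries. It was at 1.39 to 15.3 CPM in the 8 normal libraries without Trp63 and at 33.8, 38.9, 39.8, 41.9 and 78.6 CPM in the 5 tumours without it, with no overlap between these normal and tumour libraries. This split pools sexes and genotypes and was made after the values were seen. The share of all genes that it separates was not counted. In the full tumour comparisons, 33.6% to 58.4% of all genes did not overlap. Wild-type female tumour replicate 1 had 579 counts of Krt14, or 78.6 CPM, and 0 counts of Krt5, which allows up to 0.407 CPM. In the full groups the spread was wide: wild-type female normal colon had 2.58, 1.67 and 1.39 CPM, the tumours 78.6, 38.9 and 76.3 CPM, and the log2 difference of 4.97 (SE 2.12) had an edgeR adjusted p of 0.0651. In wild-type males the log2 difference of Krt14 was -0.25 (SE 1.61, edgeR adjusted p = 0.923), with 267 CPM in normal replicate 1. Once the 8 libraries were left out, it was 2.16 (edgeR adjusted p = 0.0824). That omission, chosen after seeing the data, took out this normal library, so the value of 2.16 is no separate test of Krt14.

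Krt13 was at 726 CPM in wild-type male normal replicate 1, 872 CPM in knock-in male tumour replicate 2 and 23.3 to 247 CPM in the other 6 of the 8 libraries. In normal colon without Trp63 it was at 0.296 to 3.82 CPM, and in tumours without Trp63 at 4.76 to 24.3 CPM. Its balance with Krt5 varied. Per length, Krt13 was 4.32 times Krt5 in wild-type male normal replicate 1, 1.58 times in knock-in male tumour replicate 2 and 0.279 times in knock-in female normal library b. Krt14 per length was between 0.776 and 2.81 times Krt5 in the 8 libraries.

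Of the 3 squamous keratins, edgeR called 0 and limma voom 0 in each of the 9 comparisons of 2 groups. At an unadjusted p under 0.05 were Krt14 in wild-type female tumours, Krt5 and Krt14 between genotypes in female normal colon, and Krt13 and Krt14 between the sexes in wild-type normal colon. DESeq2 called Krt5 and Krt14 in the first of these and all 3 in both others. For Krt5 between knock-in and wild-type female normal colon, the knock-in mean of 138 CPM was at least 412-fold higher than the floor of 3 counts per library to which the wild-type group was set, with an edgeR adjusted p of 0.137 and knock-in library a at 0.225 CPM. For Krt5 in wild-type female tumours against normal colon the bound was 37.5-fold with an edgeR adjusted p of 0.268, and tumour replicate 1 was at 0. Krt80, a type II keratin found in many epithelia, stayed between 0.836 and 14.6 CPM. In normal colon it was at 4.05 to 10.5 CPM in the 4 libraries with Trp63 and at 0.836 to 2.66 CPM in the other 8. In tumours the ranges overlapped, with 1.58 to 14.6 CPM (median 2.05) in the 4 with Trp63 and 1.43 to 5.29 CPM (median 2.76) in the 5 without.

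**Figure D4:**
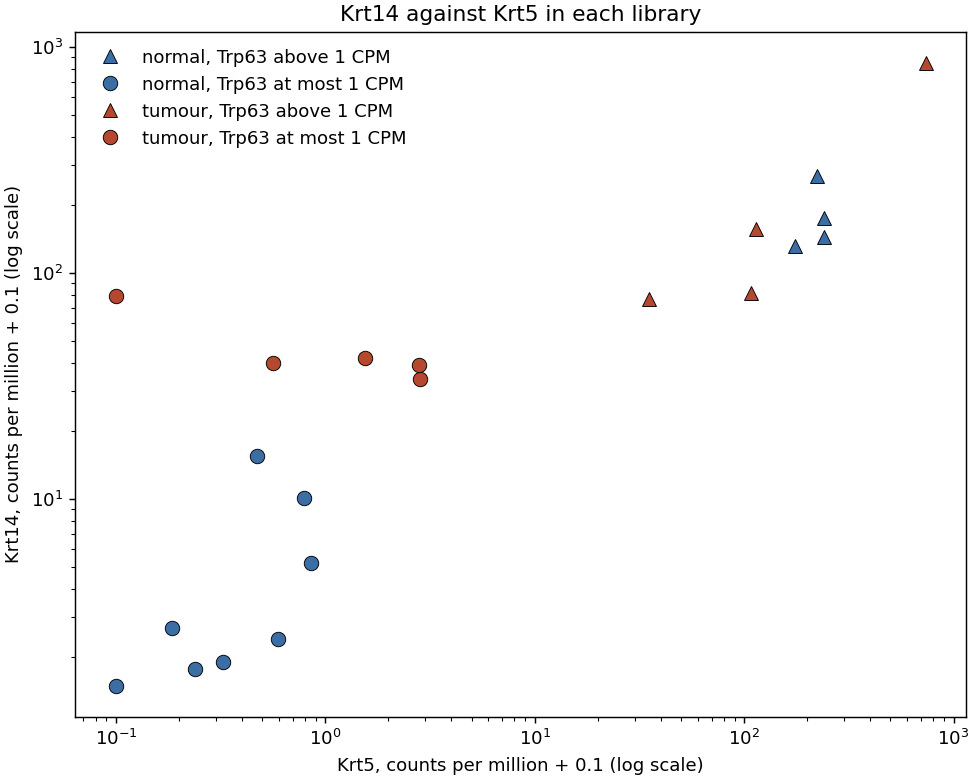
Krt14 against Krt5 in the 21 libraries (CPM + 0.1, both axes logarithmic), with normal colon in blue, tumours in red and triangles for libraries above 1 CPM of Trp63. The 8 triangles lie at 35.1 CPM of Krt5 or more, and among the circles the 5 tumours lie above the 8 normal libraries in Krt14. That split was made after the values were seen, and the share of all genes that it separates was not counted.

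Of 42 other keratin genes in the table, 16 passed the filter. Among these 2 rose and 2 fell in wild-type male tumours, 1 rose in knock-in male tumours, and 5 rose and 1 fell in wild-type female tumours, where 16.5%, 10.4% and 25.0% of all genes rose and 19.3%, 9.97% and 24.0% fell. The medians were 0.42, 1.14 and 2.40, while edgeR called 0 between genotypes in male tumours and in female normal colon. Krt36, a keratin known from hair and tongue, was at 28.4 ± 17.6 CPM in wild-type male normal colon and at 184 ± 1.93 CPM in tumours, a rise of 2.68 (edgeR adjusted p = 0.0263). It rose by 5.18 in wild-type females (edgeR adjusted p = 0.000713) and by 2.87 in knock-in males (edgeR adjusted p = 0.0345). Krt17, a keratin of injured and basal epithelium, rose by 3.85 in wild-type females (edgeR adjusted p = 0.0101). Krt4, the partner of Krt13, was at 619 CPM in wild-type male normal replicate 1 and 464 CPM in knock-in male tumour replicate 2. Krt1 and Krt10 were highest in knock-in female normal replicate 1, with 61.3 and 73.7 CPM. Reads shared between near-identical keratins, such as Krt6a and Krt6b or Krt14, Krt16 and Krt17, and with processed pseudogenes, make single values of these genes uncertain.

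Genes that anchor keratin filaments changed in part. Of 14 genes for desmosomes and linkers, 1 rose and 4 fell in tumours of wild-type males, 2 rose and 2 fell in those of knock-in males, and 1 rose and 5 fell in those of wild-type females, beside 35.7%, 20.4% and 49.1% of all genes called in either direction. Their median log2 differences were -0.27, 0.0095 and -0.22, beside 0.0054, 0.0066 and 0.0082 for all genes. Eppk1, which links filaments in simple epithelia, fell by 0.84 (edgeR adjusted p = 0.000397), fell by 0.76 (edgeR adjusted p = 0.00353) and fell by 1.28 (edgeR adjusted p = 2.95e-06) in the same order, and the desmosomal plaque gene Pkp2 rose by 0.36, 0.33 and 0.27 (edgeR adjusted p = 0.00912, 0.0275 and 0.0323). Between genotypes in male tumours 3 of the 14 were higher in the knock-in and 0 lower, beside 14.5% of all genes called: Perp by 1.02 (edgeR adjusted p = 0.0315), the cadherin Dsc2 by 0.95 (edgeR adjusted p = 0.0149) and the linker Dst by 0.73 (edgeR adjusted p = 0.00679). Knock-in tumours ran from 151 to 387 CPM for Perp, 294 to 446 CPM for Dsc2 and 392 to 556 CPM for Dst. Wild-type male tumours had 99.7 to 127, 165 to 222 and 244 to 300 CPM. The highest value of each gene was in a knock-in tumour above 1 CPM of Trp63. The part of squamous tissue in these differences was not tested.

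Of 12 tested genes for other intermediate filaments, 3 rose and 6 fell in wild-type male tumours, 1 rose and 5 fell in knock-in male tumours, and 3 rose and 5 fell in wild-type female tumours, beside 16.5%, 10.4% and 25.0% of all genes that rose and 19.3%, 9.97% and 24.0% that fell. The medians were -0.63, -0.55 and 0.094. Lmnb1, a lamin of the nuclear envelope, rose by 0.84 (edgeR adjusted p = 0.00369), 0.66 (edgeR adjusted p = 0.0288) and 1.77 (edgeR adjusted p = 2.66e-06). Vim, the filament protein of mesenchymal cells, rose by 0.73 in wild-type males (edgeR adjusted p = 0.0195) and by 1.94 in wild-type females (edgeR adjusted p = 4.56e-06). Des, the filament protein of muscle, fell by 4.75 (edgeR adjusted p = 0.000188), fell by 2.90 (edgeR adjusted p = 0.00887) and fell by 5.60 (edgeR adjusted p = 3.21e-05), together with the smooth muscle genes.

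Lists of cell states were set beside Krt20. Of 10 surface colonocyte genes found in the table, 7 fell in tumours of wild-type males, 6 in those of knock-in males and 8 in those of wild-type females, beside 19.3%, 9.97% and 24.0% of all genes, with medians of -1.86, -0.92 and -2.65. The carbonic anhydrase Car4 fell by 5.10 (edgeR adjusted p = 1.97e-05), fell by 2.91 (edgeR adjusted p = 0.00279) and fell by 6.73 (edgeR adjusted p = 8.76e-07), including knock-in males, in which Krt20 was not called. Of 8 stem and progenitor genes 6, 2 and 8 rose, beside 16.5%, 10.4% and 25.0% of all genes, with medians of 1.05, 0.64 and 2.54. The hyaluronan receptor Cd44 rose by 1.26 in wild-type males (edgeR adjusted p = 0.00561) and by 1.42 in knock-in males (edgeR adjusted p = 0.00700), and the stem cell receptor Lgr5 by 4.15 in wild-type females (edgeR adjusted p = 6.91e-05). All 8 smooth muscle genes fell in each comparison, and their part in the keratin values was not tested.

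By likeness over the 21 libraries, the 3 genes closest to each of 5 keratins were taken by Pearson's r of log2 CPM. For Krt8 these were Vstm5, Hk1 and Ezr, the last a linker of membrane and cytoskeleton, with r of 0.960 (Vstm5) to 0.958 (Ezr). For Krt20 they were Slc35b3, Tmbim4 and Oxsm, with 0.948 (Slc35b3) to 0.934 (Oxsm). For Krt7 they were Vill, Camsap1 and the tight junction gene Cldn4, with 0.969 (Vill) to 0.966 (Cldn4). For Krt23 they were Dusp4, Tenm4 and Msi1, with 0.987 (Dusp4) to 0.984 (Msi1). For Krt14 they were Krt6a, Trim29 and the desmosomal cadherin Dsg3, with 0.971 (Krt6a) to 0.961 (Dsg3). The libraries share the division into tumour and normal colon, and these values describe that set.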

How the data were processed

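The authors deposited a table of raw counts per gene for 24062 genes in 21 libraries, per the file headers. The submitters' processing notes name Trimmomatic, HISAT2, featureCounts, DESeq2 and mm10; versions, annotation and strand setting are not given in the sources used here. Groups come from the labels. In the knock-in female normal group 2 columns carry the same header, so they were used as unnumbered libraries a and b.

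edgeR 4.0.16 in R 4.3.3 was run on all 21 libraries in 1 fit, with TMM scaling, filterByExpr by group (15936 genes kept), robust quasi-likelihood F tests, 1 coefficient per group, and Benjamini-Hochberg adjustment over all tested genes at 0.05, for 9 comparisons and 3 interactions. Each standard error is the size of the log2 fold change over the square root of its F value. Log2 CPM used a prior count of 2, and 3 counts served as floor. The 95% intervals are nominal: they take a normal multiple of that error and can exclude 0 where the unadjusted p is over 0.05. Intervals and floors cover counting error or fitted spread only. Levels between genes were divided by the length of the principal GENCODE transcript, or of the longest where several carried that mark. This length was greatest for Krt7, at 4094 bases, and the order of genes depends on it. The tests were checked on simulated data. Alternatives were other scalings, no low-count filter, DESeq2 1.42.0, limma 3.58.1 voom, only the compared groups, the replicate number as a block, libraries numbered 152 to 154 as a covariate, each library left out, and, added later, omission of the 8 libraries above 1 CPM of Trp63. Replicate numbers come from the library names. Deviations from group means of same-numbered libraries correlated at 0.169, 0.174 and 0.215 in wild-type male tumour and normal colon. Replicate 1 of knock-in and of wild-type male normal colon, which differ in genotype, correlated at 0.461. Pairing by replicate number is therefore not shown, and the reported fit used no block.

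The keratins and gene lists were chosen with earlier results of these data known. Named are all 10 keratins, Epcam and App, the 3 genes most like each of 5 keratins, and, from the other keratins and each list, genes among the 3 largest called changes in each direction with a mean of at least 50 counts in 1 group; Axin2 by library, Trp63, Krt4, Krt1, Krt10, Krt6a, Dsc3, Lypd3, Tgm3, Krtdap, Sprr3 and Crct1 were added after their values were seen. Not every fixed list is reported here.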

Additional observations from a re-analysis of the deposited data

How the results depend on the processing

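The numbers of called keratins depended on the method in several comparisons. In wild-type male tumours against normal colon, 5 were called in the reported fit, 3 (Krt7, Krt18 and Krt23) on the epithelial scaling and 2 without the 8 libraries above 1 CPM of Trp63. In wild-type females that omission, which left only tumour replicates 1 and 2, gave 10 in place of 6, and DESeq2 on all libraries gave 9. Among knock-in males 1 was called in the reported fit, 2 with library totals or DESeq2, 0 with only the compared groups, 0 without the 8 libraries, and 1 to 2 on leaving out single libraries. Between genotypes in male tumours the count of 1 became 2 with DESeq2, limma voom, only the compared groups or the replicate block, and 0 with the library numbers as a covariate, without the 8 libraries and on leaving out any single library (0 to 0). In female normal colon the 0 called between genotypes became 4 with DESeq2, 1 with only the compared groups and 0 to 1 on leaving out single libraries. Between the sexes in wild-type normal colon the count of 1 became 2 with DESeq2 size factors or library totals, 4 on the epithelial scaling, 7 with DESeq2, 6 with limma voom, 0 without the 8 libraries and 0 to 3 on leaving out single libraries. In knock-in normal colon the 0 between the sexes became 2 with DESeq2, 1 with limma voom and 0 to 2 on leaving out single libraries, and in wild-type tumours 3 with limma voom. Of the interactions, genotype by sex gave 1 (Krt5) with DESeq2, tumour by sex 2 with limma voom, and tumour by genotype 0 to 1 on leaving out single libraries. The cause of these differences was not tested.

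The epithelial scaling moved the median of all genes by 0.39 for tumours of wild-type males, 0.049 for those of knock-in males and 0.63 for those of wild-type females on the log2 scale, and library totals moved it by 0.14 in wild-type females. Of all called genes, the share that was higher went from 46.0% to 79.1% in tumours of wild-type males and from 51.0% to 84.3% in those of wild-type females on the epithelial scaling (62.1% with library totals), and from 64.0% to 28.8% in the knock-in between male tumours. It went from 56.1% to 90.5% (72.8% with library totals) in the knock-in for female normal colon, from 36.1% to 5.15% (21.4%) between the sexes in wild-type normal colon and from 31.2% to 9.70% (55% with library totals or DESeq2 size factors) in knock-in normal colon. Between the sexes in wild-type tumours library totals moved it from 46.7% to 61.2%. For the interactions it went from 75.4% to 13.2% (tumour by genotype), 82.7% to 97.2% (tumour by sex) and 69.4% to 81.6% (genotype by sex, 82.0% with library totals). Krt8 in wild-type males changed sign there, to 0.021. With the replicate block, 5 keratins were called in wild-type male tumours and 7 in wild-type female tumours. The block moved no other count than those given, and pairing by replicate number is not shown. Of single keratin values, the calls of Krt18, Krt7, Krt20 and Krt23 in both wild-type tumour comparisons held in all fits that left out a single library. So did those of Krt8 and Krt19 in wild-type female tumours and of Krt18 in knock-in male tumours. The call of Krt8 in wild-type male tumours held in 2 of 6 such fits.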
